A study of Macaca mulatta with 5 samples.

Results

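GAD1 and GAD2 encode both glutamate decarboxylases, the enzymes that make the inhibitory transmitter GABA from glutamate. Their signals were followed over 5 stages of a macaque (rhesus) stem cell culture meant to yield serotonin neurons. The genes were chosen by symbol in the array's probe annotation, which gave 5 probe sets of 52865, with 3 for GAD1 (NCBI gene 613030) and 2 for GAD2 (NCBI gene 613029). They are 2 of 14132 named genes. All stages came from line 366.4, derived from a preimplantation embryo. The ESC stage held undifferentiated cells of passage 13 grown on mouse embryonic fibroblasts. The EB stage held embryoid bodies after 6 to 8 days, and the N1 stage neurospheres after 7 to 9 days in medium with N2 supplement. For the N2 stage, N1 cells were expanded with FGF4 for 7 to 9 days. For the N3 stage they were left to mature with no FGF4, on a matrix low in growth factors, for a time that the labels do not give. Each stage was represented by 1 array of total RNA from this single line.

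GABA is formed in a single step in which glutamate loses a carboxyl group, with the vitamin B6 derivative pyridoxal phosphate as the cofactor. The GAD1 product is found throughout the neuron and supplies most basal GABA, whereas the GAD2 product is concentrated at nerve terminals and is switched on and off by binding its cofactor. Both genes mark GABA neurons, both are also expressed outside the brain, among others in pancreatic islets, and some non-neuronal embryonic tissues express GAD1. In bulk RNA, more cells that express a gene and more RNA per cell cannot be told apart.

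Signals are array intensities brought to a common trimmed mean of 500 per array, and 100 was set as the floor, above the highest of 42 negative control probe sets (47.6 to 87.2 by array). Where 1 side of a ratio was under the floor, the ratio was taken against 100 and is given as "at least". A difference was called at 2-fold. There is no replicate, hence no test, error or p-value for any difference. The nearest available yardstick was technical, from the difference between the log2 ratios of a gene's 2 brightest probe sets. The SD of that difference over genes was divided by the square root of 2, to give the spread of 1 probe set. This technical SD ranged from 0.43 (N3 against N2) to 0.89 (N2 against ESC) over the 10 pairs of stages. The arrays also differed in the 3' to 5' signal ratio of the actin control, from 1.73 in ESC to 25.2 in N2, and in that of GAPDH, from 1.69 in N1 to 7.1 in N2. Its part in the results below was not tested.

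The brightest GAD1 probe set read 7.17 at ESC, 526 at EB, 162 at N1, 484 at N2 and 2342 at N3. ESC was far under the floor, EB and N2 were alike, N1 was a dip between them, and N3 stood above every other stage. The same probe set spanned at least 23.4-fold between ESC and N3. In the order of its levels (N3, EB, N2, N1, ESC), EB and N2 differed by 0.12 on the log2 scale, inside the technical SD of 0.52 for that pair. N1 lay at least 0.69 above ESC, against an SD of 0.69. N3 was 2.16 above EB (SD 0.62), and N2 was 1.58 above N1 (SD 0.54).

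The other GAD1 probe sets gave dimmer signals with a narrower range. The second read 110 at ESC, 175 at EB, 59.0 at N1, 116 at N2 and 294 at N3. It repeated the peak at N3, the dip at N1 and the intermediate value in EB, but not the low ESC value. The third, 52.4 at ESC, 45.5 at EB, 24.4 at N1, 63.0 at N2 and 221 at N3, crossed the floor in N3 alone. All 3 GAD1 probe sets were therefore highest in N3.

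The brightest GAD2 probe set read 118 at ESC, 662 at EB, 560 at N1, 1737 at N2 and 1230 at N3. It was lowest in ESC, at an intermediate plateau in EB and N1, and highest in N2 and N3. N2 and N3 differed by 0.50 on the log2 scale (SD 0.43), N3 and EB by 0.89 (SD 0.62), and EB and N1 by 0.24 (SD 0.45). The step from ESC to N1 was 2.25 (SD 0.69). Its full span was 14.7-fold.

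The other GAD2 probe set read 92.2 at ESC, 102 at EB, 237 at N1, 168 at N2 and 248 at N3. It was low in ESC and EB and higher from N1 on. The pair thus shared a low ESC value and raised N2 and N3 values, but placed the first increase at different steps and opposed each other between N1 and N2. Where the probe sets lie on the transcripts was not analysed here.

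**Figure D1:**
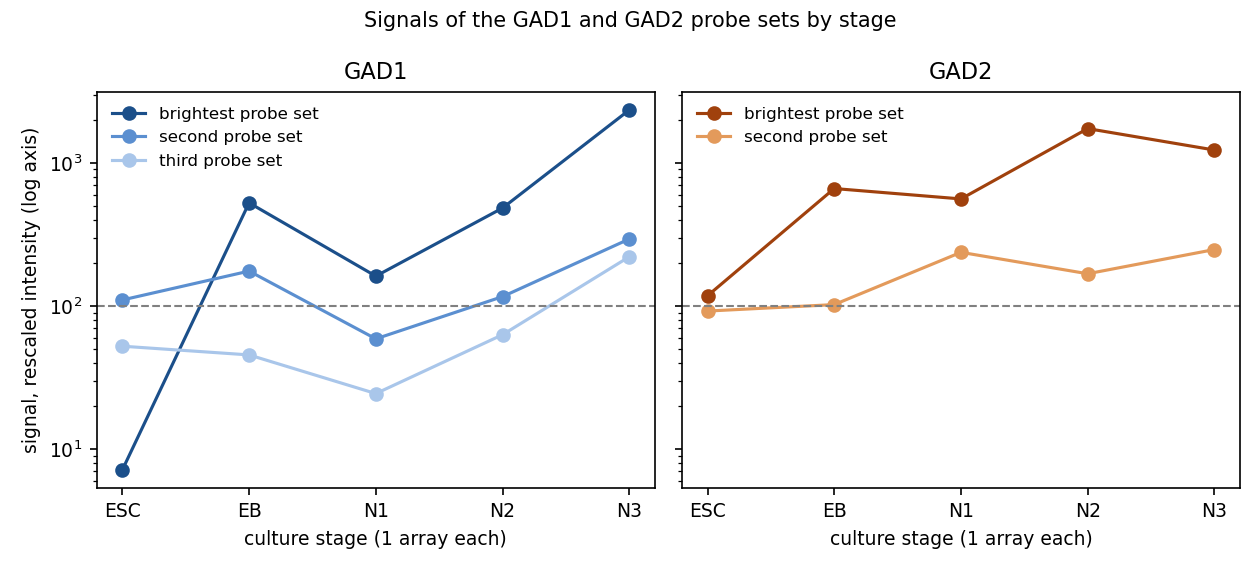
Rescaled array signal (log axis) of each GAD1 and GAD2 probe set at the 5 culture stages, 1 array per stage, with the floor of 100 as a dashed line and no error bars because there are no replicates. All 3 GAD1 probe sets are highest in N3 (2342, 294 and 221), whereas the brightest GAD2 probe set peaks in N2 (1737).

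Embryoid bodies were compared with stem cells to see what appeared once cells left the feeder layer. Both enzymes were higher in EB on their brightest probe sets, GAD1 by at least 5.26-fold and GAD2 by 5.62-fold. The other probe sets of both genes stayed within 2-fold, at 1.59-fold for the second GAD1 probe set and at least 1.02-fold for the second GAD2 one. Of 4 GAD probe sets measured, 2 were at least 2-fold higher and 0 lower, where 11.7% of all measured probe sets were higher and 14.7% lower. Among named genes, 238 of 10978 had a ratio at or above that of GAD2. Genes under the floor in ESC entered with bounds, so 238 is a minimum count. GAD1 has only a bound here and was not ranked. In the same comparison the general neuron list did not move as a group, with 3 of 8 measured members higher, 2 lower and a median log2 ratio of -0.03. Of all measured genes, 12.1% were higher and 11.8% lower. Markers of other lineages moved more: APOA1 was 751 in ESC and 20596 in EB, and TNNT2 138 and 3926.

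Between EB and N1, where neural cells were selected, the enzymes parted. GAD1 was 3.25-fold lower in N1 (log2 ratio -1.70, technical SD 0.45), and its second probe set was lower by at least 1.75-fold. GAD2 was 1.18-fold lower on its brightest probe set, a direction that turned with scaling to hybridisation controls (log2 ratio 0.22), and 2.32-fold higher on the other. Over 4 measured GAD probe sets 1 was higher and 1 lower, where 7.23% of all measured probe sets were higher and 1.82% lower. Of 10335 measured genes, 10301 had a ratio at or above that of GAD1. General neuron genes went the other way from GAD1, with 6 of 8 higher and 0 lower (median 2.08). Of all measured genes, 5.15% were higher and 2.2% lower. STMN2, a tubulin regulator of growing neurites, read 1986 in EB and 12594 in N1, and DCX, a microtubule protein of migrating neurons, 535 and 2222. The log2 ratio of GAD1 was 1.46 below that of GAD2, a difference that multiplying whole arrays by a factor cannot alter.

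Expansion with FGF4 was examined by setting N2 against N1. GAD1 was 2.99-fold higher and GAD2 3.10-fold higher on their brightest probe sets, the only adjacent step after EB at which both moved upward by similar amounts (their log2 ratios differed by 0.05). The second GAD1 probe set was higher by at least 1.16-fold, and the second GAD2 probe set was 1.41-fold lower. Of 4 measured GAD probe sets, 2 passed 2-fold upward and 0 downward, where 6.61% of all probe sets were higher and 7.58% lower. Of 10552 genes, 161 had a ratio at or above that of GAD1 and 148 at or above that of GAD2. Scaling to the hybridisation controls placed the median of all genes at -0.57 and left GAD1 at 1.00 and GAD2 at 1.06, still past 2-fold. The neuron list had 4 of 8 members higher and 0 lower (median 1.09), and the progenitor list 4 of 5 higher and 0 lower (median 2.13), with PAX6 at 306 in N1 and 3301 in N2. Of all measured genes, 5.06% were higher and 6.53% lower. N2 was also the array with the highest actin and GAPDH 3' to 5' ratios.

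Withdrawal of FGF4 for maturation, N3 against N2, separated the enzymes most. GAD1 was 4.84-fold higher in N3 (log2 ratio 2.28, technical SD 0.43), with the second probe set 2.53-fold and the third at least 2.21-fold higher. GAD2 was 1.41-fold lower on its brightest probe set and 1.48-fold higher on the other. Of 5 measured GAD probe sets, 3 passed 2-fold upward, all of them GAD1, and 0 passed downward, where 5.78% of all probe sets were higher and 2.13% lower. Including GAD1 itself, 15 of 10401 genes reached its ratio, whereas 9125 were at or above that of GAD2. The log2 ratio of GAD1 exceeded that of GAD2 by 2.77. General neuron genes shifted less here, with 1 of 9 higher (TUBB3, a neuronal tubulin, 1819 in N2 and 7590 in N3) and a median of 0.60. Of all measured genes, 4.78% were higher and 2.19% lower.

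Over the whole culture, N3 against ESC, GAD1 was at least 23.4-fold and GAD2 10.4-fold higher. All 5 GAD probe sets were at least 2-fold higher, where 18.7% of all measured probe sets were and 15.6% were lower, at 2.67-fold and at least 2.21-fold for the other GAD1 probe sets and at least 2.48-fold for the other GAD2 one. Of 11232 genes, 200 had a ratio at or above that of GAD2. This is a minimum count, since genes under the floor in ESC entered with bounds. GAD1, known only as a bound, was not ranked. The summed signal of the 9 neuron markers with a named probe set was 14169.5 at ESC and 7507 at EB. It was 27308 at N1, 41711 at N2 and 67463 at N3. Its low in EB came mainly from SYT1 (4177 in ESC and 329 in EB) and TUBB3 (3684 and 663), while STMN2, DCX and ELAVL4 were at least 2-fold higher in EB than in ESC. Another TUBB3 probe set read 371 and 415. What part the number of neurons had in the GAD signals was not tested.

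**Figure D2:**
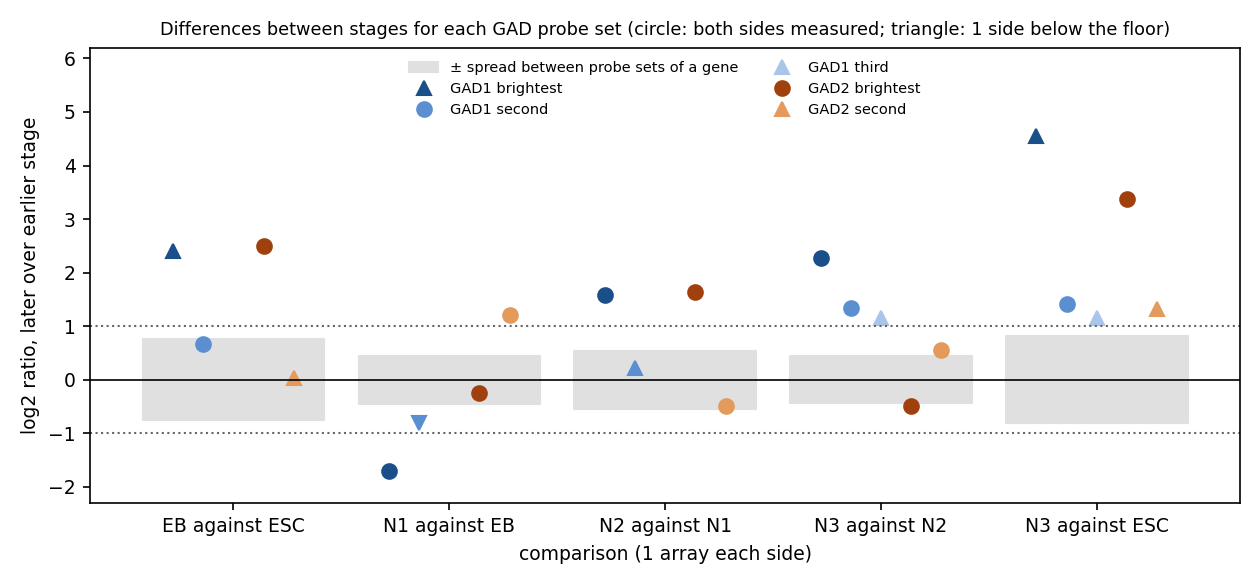
Log2 ratio of the later over the earlier stage for each GAD probe set in 5 comparisons of 1 array with 1 array; circles are measured on both sides, triangles are bounds with 1 side under the floor, dotted lines mark 2-fold and grey bands the technical SD. All 3 GAD1 probe sets pass 2-fold upward in N3 against N2, while both GAD2 probe sets stay within it (-0.50 and 0.56).

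Other genes of GABA metabolism and signalling were taken from 10 lists of 91 genes, of which 56 have a named probe set here. For all lists in this report, "on the array" means having a named probe set. Of 52865 probe sets, 27535 are missing from the annotation used, so a gene not counted may still be on the array. Counted together, 8 of 33 measured members were at least 2-fold higher and 2 lower in EB against ESC, where 12.1% of all measured genes were higher and 11.8% lower (13 and 1 with equal array medians). In N1 against EB 5 of 28 were higher and 3 lower (background 5.15% and 2.2%), and 6 and 0 with scaling to hybridisation controls. In N2 against N1 9 of 32 were higher and 3 lower (background 5.06% and 6.53%), a split that turned to 4 and 8 with hybridisation controls. In N3 against N2 9 of 36 were higher and 1 lower (background 4.78% and 2.19%). In N3 against ESC 17 of 40 were higher and 4 lower (background 17.2% and 16.4%), with a median log2 ratio of 0.48, against -0.13 for all genes. Scaling to equal medians or to hybridisation controls made that lower count 2.

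Genes of glutamate supply went both ways. Of 16 listed, 11 are on the array, and in N3 against ESC 3 were higher and 4 lower (median -0.41), where 17.2% of all genes were higher and 16.4% lower. The higher ones were the glutamate transporters SLC1A2 and SLC1A3 and the glutamate dehydrogenase gene GLUD1. SLC1A2, which clears glutamate mainly into astrocytes, read 12.0 at ESC, 99.4 at EB, 149 at N1, 653 at N2 and 2340 at N3. It was under the floor at the start and, like GAD1, at its highest in N3. SLC1A3, of astrocytes and radial glia, read 408, 893, 761, 2489 and 4452 in the same order. Its N1 value was 0.23 below that of EB on the log2 scale, inside the technical SD of 0.45. Its other probe set read 228, 240, 159, 148 and 562. GLUD1 was 85.0 in ESC and 1453 in EB and then lower, at 452 in N3, but its other probe set was between 51.9 and 125 on all arrays.

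PDXK, the kinase that makes the cofactor of both enzymes, was 1296 at ESC, 955 at EB, 637 at N1, 548 at N2 and 357 at N3. It was 3.63-fold lower in N3 than in ESC, against the direction of the enzymes, and its other probe set was also lower (log2 ratio -1.96). ODC1, which makes putrescine, an alternative source of GABA, was 11480 in ESC, 20786 in EB and 5532 in N3. GLS2, a glutaminase, and SLC38A3, a glutamine transporter, named after their values were seen, completed the lower members with log2 ratios of -1.20 and -1.08. The glutamine transporter SLC38A1 was 1141 in ESC, 142 in EB and 787 in N3.

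Breakdown was represented by ABAT, the GABA transaminase, which read 633 at ESC, 901 at EB, 1935 at N1, 4851 at N2 and 8165 at N3. Its signal was higher at every later stage and 12.9-fold higher in N3 than in ESC, without the dip of GAD1 at N1 or the N2 peak of GAD2. Its other probe set was 160 in ESC, 84.2 in N2 and 308 in N3. ALDH5A1, the dehydrogenase of the next step, was under the floor on every array. Of the transporters, SLC6A11 and SLC6A12, both GABA uptake carriers, were over the floor in ESC (138 and 105) and under it at the 4 later stages. The vesicular GABA transporter SLC32A1, the uptake carrier SLC6A13 and the GABA-B receptor genes GABBR1 and GABBR2 were not analysed here.

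Among GABA-A receptor subunits, 11 of 19 are on the array and 7 were over the floor on at least 1 array. In N3 against N2, 4 of 6 measured subunits were higher and 1 lower, where 4.78% of all measured genes were higher and 2.19% lower. GABRA2 read 92.4 in N2 and 430 in N3, GABRA3 60.4 and 242, GABRB1 256 and 530, and the rho subunit GABRR1 92.7 and 333. All 4 had their highest signal in N3, as GAD1 did. GABRA2, GABRA3 and GABRR1 were under the floor in N2 and counted as measured only through N3, so they could not be called lower. The other measured GABRB1 probe set was 155 in N2 and 189 in N3, and the other GABRA2 probe set was under the floor at both. GABRP, a subunit best known from epithelia, ran the other way, at 346 at EB, 392 at N1, 389 at N2 and 107 at N3. GABRE was 165 in N2 and 279 in N3.

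Scaffold genes of inhibitory synapses were on the array for 5 of 7, and 0 of 5 passed 2-fold in N3 against ESC, where 17.2% of all genes were higher and 16.4% lower, so that a count of 0 among 5 is near the background. GPHN, the gephyrin scaffold, lay between 968 and 1444, GABARAP between 4755 and 9256, and INSYN1 was 203 in EB and 533 in N1. Another GPHN probe set read 161 in ESC and 415 in N3 (log2 ratio 1.37), and the remaining one 340 and 297. SLC12A5, the neuronal chloride exporter on which inhibition by GABA depends, was 29.1 at ESC, 87.6 at EB, 106 at N1, 227 at N2 and 419 at N3. It was at least 4.19-fold higher in N3 than in ESC on its single probe set.

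Transcription factors of forebrain GABA neurons were on the array for 12 of 17. DLX1 read 28.6 at ESC, 132 at EB, 392 at N1, 972 at N2 and 838 at N3. It was higher at each step up to N2 and 0.21 lower on the log2 scale in N3, inside the technical SD of 0.43, where GAD2 was 0.50 lower. The other DLX1 probe set was under the floor until N2 (101) and read 207 in N3. MEIS2 (265 in ESC and between 6810 and 8019 later) and SOX6 (138 in ESC and between 1609 and 3181 later) had their whole step at EB. SP8 read 984 in EB and between 342 and 385 from N1 on, but its other probe set was 400 in ESC and between 202 and 246 later. PROX1 read 122 at EB, 394 at N1, 17.8 at N2 and 347 at N3, but its 3 other probe sets were all under the floor in N1 and N2. LHX6 lay between 112 and 280, with its lowest value in N1, and its other probe set was under the floor throughout. GSX1, NKX2-1 and VAX1, named after their values were seen, were under the floor on all arrays.

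For GABA neurons of midbrain, hindbrain and spinal cord, 9 of 13 factors are on the array. GATA3 read 348 at ESC, 3911 at EB, 1418 at N1, 1436 at N2 and 895 at N3. Its peak in EB coincided with the first GAD1 peak, and both probe sets of GATA3 were lower in N1 (log2 ratios -1.46 and -1.69). GATA3 is also a trophoblast factor. GATA2 lay between 107 and 203. PAX8 was 70.6 in ESC, 216 in N2 and 515 in N3, but its 5 other probe sets did not exceed 242. LBX1 passed the floor in N3 alone (213). LHX1, LHX5, PAX2 and HELT, named after their values were seen, were under the floor on every array. Among peptides and calcium-binding proteins of GABA neuron classes, NPY was under the floor up to N1, 330 in N2 and 2861 in N3, and VIP and PVALB were under it throughout.

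**Figure D3:**
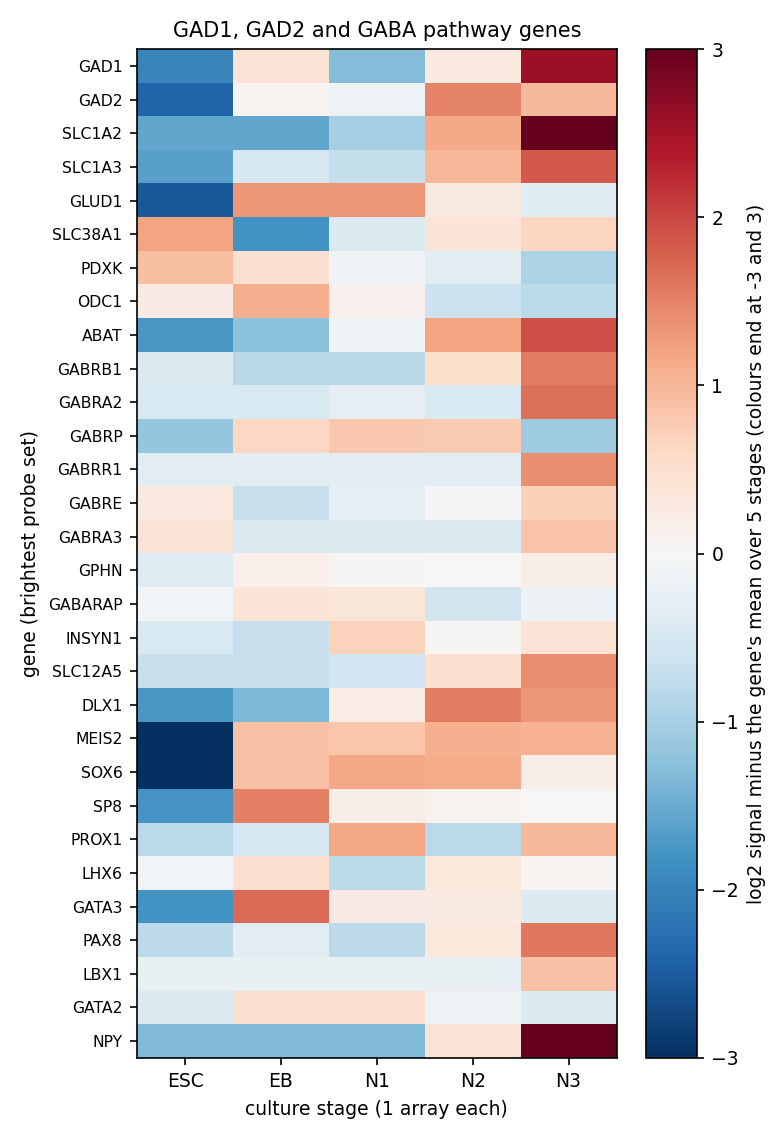
Heat map of floored log2 signal minus the gene's own mean over 5 stages, 1 array per stage, for GAD1, GAD2 and 28 genes of the GABA lists. GAD1 shares its N3 maximum with SLC1A2, SLC1A3, ABAT, 5 of the 6 GABA-A subunits shown, GPHN, SLC12A5, PAX8, LBX1 and NPY. PDXK is highest in ESC.

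The labelled cell type was checked with its markers. Of 6 serotonin neuron markers on the array, TPH1, TPH2, LMX1B and HTR1A were under the floor on all arrays, with TPH2, the brain serotonin-synthesising enzyme, between 5.03 and 16.2. FEV and SLC18A2 did not reach 200 at any stage. In the arrays labelled as serotonin neurons, N2 and N3, the GAD signals were therefore not accompanied by signal of TPH2. Astrocyte and radial glia markers, 5 of 8 on the array, had a summed signal of 1390 at ESC, 2379 at EB, 2153 at N1, 4649 at N2 and 8069 at N3, highest in N3 as GAD1 was. Between EB and N1, where GAD1 was 3.25-fold lower, 1 of these 5 markers was at least 2-fold higher (S100B) and 0 lower. Of all measured genes, 5.15% were higher and 2.2% lower, so that 0 lower among 5 is near the background. SLC1A2 and SLC1A3, also on the glutamate supply list, made up most of the summed signal in N3. The other markers were highest before N3 on their brightest probe sets. GFAP read 911 in ESC and 684 in N3, S100B 741 in N2 and 513 in N3, and ALDH1L1 387 in EB and 78.2 in N3. The other GFAP probe set read 156 in ESC and 274 in N3. What part cells with these markers had in the GAD1 signal was not tested.

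Floored log2 signals were centred on each gene's mean over the 5 stages. Genes with the most similar course, among 6079 other genes, were sought by the root mean square difference between these signals. For GAD1 these were ACTN2, a sarcomere and synapse actin crosslinker (0.42), the matrix proteoglycan FMOD (0.60), the commissural axon receptor ROBO3 (0.60), the neuronal APC homologue APC2 (0.62) and SLC1A3 (0.68). ACTN2 read 116 at ESC, 363 at EB, 223 at N1, 453 at N2 and 1533 at N3. All 5 share a maximum in N3, and they include muscle and matrix genes as well as neural ones. All 5 also read lower in N1 than in EB, but except for ACTN2 by less than the technical SD of 0.45. FMOD read 174 in EB and 134 in N1, ROBO3 170 and 132, and APC2 264 and 204. On the log2 scale SLC1A3 was 0.23 lower in N1, where GAD1 was 1.70 lower. The other probe sets of ACTN2 differed from GAD1 by 0.69 to 1.28, that of APC2 by 1.76 and that of SLC1A3 by 1.19.

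For GAD2 the nearest were KANK4 (0.13), ZNF654 (0.17), RNF150 (0.20), the collagen gene COL14A1 (0.24) and PRPH, the intermediate filament peripherin of peripheral and brainstem neurons (0.24). KANK4 read 122 at ESC, 675 at EB, 515 at N1, 1461 at N2 and 1316 at N3, a course nearly superimposable on that of GAD2. The other probe sets of COL14A1 differed from GAD2 by 0.96 to 1.47, and that of ZNF654, under the floor throughout, by 1.34. On floored signals GAD2 had closer neighbours than GAD1: the 5 named differed by at most 0.24, those of GAD1 by at least 0.42. The enzymes themselves differed by 1.05, which placed GAD2 at rank 265 among the genes like GAD1 and GAD1 at rank 1643 among those like GAD2. GAD1 and its neighbours FMOD, ROBO3 and APC2 were under the floor in ESC and entered there at the floor. Differences and ranks that involve GAD1 therefore rest on a bound at that stage. With 5 points, such likeness describes these arrays only.

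**Figure D4:**
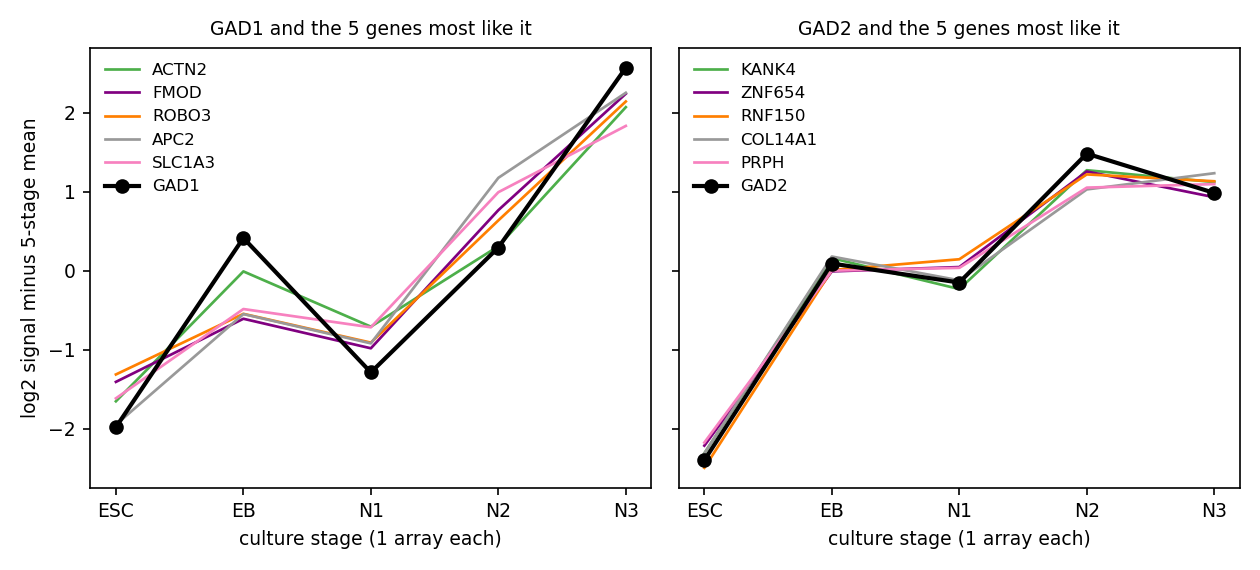
Floored log2 signal minus the 5-stage mean for GAD1 and GAD2 (black, points) and for the 5 genes closest to each (coloured lines), 1 array per stage. GAD2 and its neighbours nearly overlap (0.13 to 0.24), while GAD1 lies above its neighbours in EB and below them in N1.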

How the data were processed

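The authors deposited linear array intensities, with 1 value for each probe set on each array. Per the submitters' processing notes they were made with GCOS 1.0, Affymetrix's array software. How signals were summarised and which were called present is not given in the sources used here. The deposited trimmed means (2% from each end, 158 control probe sets left out) were 199.1 to 199.3, so arrays had been scaled before deposit. Here each array was rescaled to 500, values under 100 were set to 100, and log2 was taken (Python 3.11.15, pandas 2.3.3). A gene was its probe set of highest mean log2 signal among those with 1 symbol, and counted as measured when over the floor on at least 1 array of a pair. A gene under the floor on 1 array of a pair could be called in only 1 direction. Such genes also entered the rankings with bounds, so counts of genes at or above a GAD ratio are not exact. Names come from the platform annotation. No build was named, so no coordinates are given. Precision is limited by 1 array per stage. The code for ratios and the likeness ranking was run on simulated arrays with less noise than the technical SD. The matching gene planted there had identical values. That run therefore checks the code and not how reliable the results are. Named genes were the GAD probe sets, up to 6 members per list by span among those reaching 200 (all of lists of 5 or fewer) and the 5 most alike genes. Members and lists were chosen with earlier results of these data known. Alternatives were 4 scalings, floors of 50 and 200, no floor, the median over a gene's probe sets, no _s_at or _x_at probe sets, and a 4-fold threshold.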

Additional observations from a re-analysis of the deposited data

How the results depend on the processing

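No paired analysis was possible because each stage has 1 array. A GAD value counts here as moved when it differed from the reported one by more than the technical SD. Of 118 combinations of a GAD ratio or span and a setting, 89 did not move, 26 moved, 3 fell short of the 4-fold threshold and 0 reversed a called direction. Some settings could hardly move a GAD value. No GAD probe set ends in _s_at or _x_at, the deposited arrays were already scaled alike, and the 4-fold threshold alters no ratio. The count of 89 is therefore not a measure of robustness. The floor set the GAD1 ratios against ESC by construction: EB against ESC was 3.39 with a floor of 50, 1.39 with 200 and 6.01 with none, N3 against ESC and the span were 5.55, 3.55 and 8.16, and GAD2 in EB against ESC was 1.73 with 200. The median of probe sets gave GAD1 ratios of 0.81, -0.81, 0.22, 1.34 and 1.56 over the 5 comparisons (EB against ESC, N1 against EB, N2 against N1, N3 against N2, N3 against ESC) and a span of 1.56. For GAD2 it gave 1.26, 0.49, 0.57, 0.032 and 2.35, and a span of 2.35. So the calls of GAD1 at EB and N1 and of both genes at N2 rest on the brightest probe set. The GAD2 call at EB does too, since its median of 1.26 lies between 2.49 on the brightest probe set and at least 0.03 on the other. Hybridisation controls gave -1.24 and 1.00 for GAD1, and 0.22 and 1.06 for GAD2, in N1 against EB and N2 against N1. At 4-fold the calls at -1.70, 1.58 and 1.63 were lost. Uncalled GAD2 ratios changed sign in N1 against EB (hybridisation controls, median of probe sets) and N3 against N2 (median of probe sets). The median of all genes lay at 0.41 and -0.37 with equal medians in EB against ESC and N1 against EB, and at 0.41, -0.57 and 0.17 with hybridisation controls in N1 against EB, N2 against N1 and N3 against N2.

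Of 100 pathway counts, 39 moved by over 1.5 times, and these are given as members higher (H) or lower (L). In EB against ESC (8 H, 2 L) equal medians gave 13 H and 1 L, quantile normalisation, a floor of 200 and the median of probe sets 1 L, and a floor of 50 and no floor 9 L. In N1 against EB (5 H, 3 L) hybridisation controls gave 0 L, a floor of 50 gave 8 H, a floor of 200 gave 2 H, and the median of probe sets 2 H and 1 L. In N2 against N1 (9 H, 3 L) hybridisation controls gave 4 H and 8 L, a floor of 200 gave 4 H and 1 L, and the median of probe sets 3 H and 1 L. In N3 against N2 (9 H, 1 L) equal medians, a floor of 50, no floor and the median of probe sets gave 2 L, and a floor of 200 gave 5 H and 0 L. In N3 against ESC (17 H, 4 L) equal medians, hybridisation controls and a floor of 200 gave 2 L, and a floor of 50 and no floor 8 L. At 4-fold the counts in these comparisons were 5, 0, 1, 2 and 11 H and 1, 0, 0, 0 and 0 L. With ESC under the floor, ratios of the brightest GAD1 probe set against ESC are bounds only.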

Other observations

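Protein-coding genes up to 2 places from GAD1 and GAD2 in the order of the RefSeq macaque gene table were read on the same arrays. The genes directly on either side of GAD1 had no named probe set here. SP5, a WNT-responsive transcription factor 2 places from GAD1, was 212 at ESC, 1429 at EB, 555 at N1, 493 at N2 and 502 at N3. It was highest in EB, whereas GAD1 was highest in N3, and both were lower in N1 than in EB. GORASP2, a Golgi protein 2 places away on the other side, lay between 3632 and 6306. Beside GAD2, MYO3A was under the floor on all arrays and APBB1IP lay between 219 and 389.

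Of the islet markers, 6 of 12 are on the array. PDX1 and NEUROG3 were under the floor at every stage, GCG reached 102 in N2, NKX6-1 passed the floor in N3 alone (147), SLC30A8 in ESC alone (126), and CHGB, a secretory granule protein that neurons also make, was 392 at ESC, 57.8 at EB, 214 at N1, 711 at N2 and 1340 at N3. Among glutamate neuron markers, SLC17A7 was under the floor on all arrays, SLC17A8 was 328 in N2 and 259 in N3, and NEUROD6 was 265 in N3. TBR1 read between 5731 and 8977 on every array, ESC included, but its other probe set read 113 in ESC and was under the floor at the 4 later stages.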
